A study of Bos taurus with 8 samples.

Results

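The BCL2 family is the group of proteins that sets whether the outer membrane of the mitochondrion stays intact or is opened to start apoptosis. The genes described here are those of a list of 10 family members that are present in the deposited expression table: BCL2L10, BCL2L1, BCL2, BAX, BAK1, BID, PMAIP1, BBC3 and BIK. These are 9 of the 16606 genes in the table, and the remaining gene on the list, MCL1, was not analysed here. Of the 9 genes, 6 had a mean of at least 1 CPM (the read count scaled to library depth, as deposited) over the 8 libraries and entered the test, beside 12129 genes tested in all. BCL2, BBC3 and BIK did not reach that level and are described by their reads.

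The libraries come from cattle (Bos taurus) embryos fertilised in vitro from oocytes of abattoir ovaries. The study compared control embryos with embryos edited in RPL12, which encodes a protein of the large ribosomal subunit, at the 4-cell and the 8-cell stage. The edit carries the name A148G, and from where its position counts is not said. Zygotes to be edited received PEmax and a guide RNA by injection into the cytoplasm. PEmax is a prime editor, a Cas9 nickase joined to a reverse transcriptase. The sample titles nevertheless speak of base editing, and the source given for the 4-cell samples is oocytes. It is not labelled whether controls also received an injection, which share of alleles carried the edit, or how completely cumulus cells were removed. Pools of 5 embryos gave 1 library each by SMART-Seq amplification of polyadenylated RNA, and each of the 4 groups has 2 libraries.

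Members of the family fall into 3 roles. Survival members such as BCL2, BCL2L1 (BCL-XL) and BCL2L10 hold the pore-forming members in check. The effectors BAX and BAK1 form the pore through which cytochrome c leaves the mitochondrion. BH3-only members such as BID, PMAIP1 (NOXA), BBC3 (PUMA) and BIK act upstream, either by neutralising survival members or by activating effectors. BCL2L10 is known for its high transcript level in the oocyte. Before the major activation of the embryonic genome, which in cattle falls around the 8-cell stage, most transcripts were stored by the oocyte.

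The libraries held 33527531 to 35122409 gene-assigned reads, and those of a group correlated with a Pearson r of 0.971 to 0.978 across tested genes. RPL12 was lower in the edited embryos at both stages (limma log2 fold changes of -2.41 and -2.81, adjusted p-values 2.36e-06 and 2.99e-06). Marker transcripts moved with the groups too. For 12 markers of the oocyte and early embryo the sum ran from 19568 to 26008 CPM in 4-cell controls and from 49084 to 57655 CPM in 4-cell edited embryos. It ran from 37250 to 49979 CPM in 8-cell controls and from 52328 to 55567 CPM in 8-cell edited embryos. BTG4 alone made up most of this sum, at 12016 and 14925 CPM in 4-cell controls and 28841 and 37563 CPM in 4-cell edited embryos. All 12 were tested, of which 6 were called higher and 1 lower in edited embryos at the 4-cell stage and 2 higher at the 8-cell stage. The part of these markers in the results on BCL2L10, PMAIP1 and the pathway genes that rose was not tested. For 16 markers of cumulus and granulosa cells the sum was 1039 and 1043 CPM in 4-cell controls against 339.9 and 388 CPM in 4-cell edited embryos, and 412 and 748 CPM in 8-cell controls against 425 and 426 CPM in 8-cell edited embryos. For 5 markers of theca and stroma it was 3051 and 6313 CPM against 1313 and 1926 CPM at the 4-cell stage, and 2570 and 3105 CPM against 126 and 771 CPM at the 8-cell stage. Most of that sum was 1 gene, LUM, at 2878 and 5965 CPM in 4-cell controls and 1282 and 1897 CPM in 4-cell edited embryos. Of 5 epithelial markers 3 were called lower and 1 higher at the 4-cell stage, and 2 lower at the 8-cell stage. The keratin gene KRT8 stood at 64.6 and 68.6 CPM in 4-cell controls and at 5.35 and 5.70 CPM in 4-cell edited embryos (limma log2 fold change -3.37). The 1 called higher was CDH1, at 23.3 and 36.3 CPM in 4-cell controls and at 74.2 and 57.8 CPM in 4-cell edited embryos. As a measure for the marker counts, 25.8% of all tested genes passed as lower in 4-cell edited embryos and 18.9% as higher. Among 8-cell libraries those shares were 14.5% lower and 1.08% higher. Of the cumulus and granulosa markers 15 were tested, of which 9 were called lower and 1 higher in edited embryos at the 4-cell stage and 3 lower at the 8-cell stage. Of the 5 theca and stroma markers 5 and 4 were called lower. No marker of either list was at 0 in every library, although FOXL2, a defining granulosa factor, did not exceed 0.464 CPM in any. Some markers of these lists entered the test through the control libraries, among them COL1A1, AMH, TNFAIP6 and INHA, named after their values were seen. For such markers a lower level in edited embryos was favoured by the filter. Counting settings are not given in the sources used here, and only BAX among the members overlaps another gene of the table in the RefSeq annotation, TULP2, which stood between 1.11 and 3.14 CPM.

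In edited embryos the BH3-only gene BID fell at both stages, and at the 4-cell stage the effector BAK1 and the survival gene BCL2L10 fell too, whereas the BH3-only gene PMAIP1 rose. The 4-cell call of BCL2L10 was lost in 10 of 16 alternative fits and that of PMAIP1 in 4 of 16. BAK1 entered the test through the 4-cell controls, so its fall was favoured by the filter. BID was the member with the largest change: its mean level was 7.08 times lower in edited embryos at the 4-cell stage and 3.77 times lower at the 8-cell stage. In edited embryos BCL2L10 rose between the stages, a call lost in 6 of 16 alternative fits. BAX, which was 2.45 times higher in edited embryos at the 8-cell stage by its mean, missed the threshold there. At the 4-cell stage 4 of 6 tested members passed an adjusted p-value of 0.05 (limma, Benjamini-Hochberg over all genes), where 44.7% of all tested genes did. Of these 1 was called higher, with 18.9% of all genes, and 3 lower, with 25.8%. For 4 of 6 members the edited and control libraries did not overlap, as for 71% of all genes. In 8-cell embryos 1 of 6 passed, with 15.6% of all genes. That member was called lower, with 14.5% of all genes, and 0 were called higher, with 1.08%. The 8-cell groups did not overlap for 4 of 6 members and for 60.4% of all genes. Edited and control libraries thus differed in a large part of all genes, and neither share singles the family out.

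**Figure D1:**
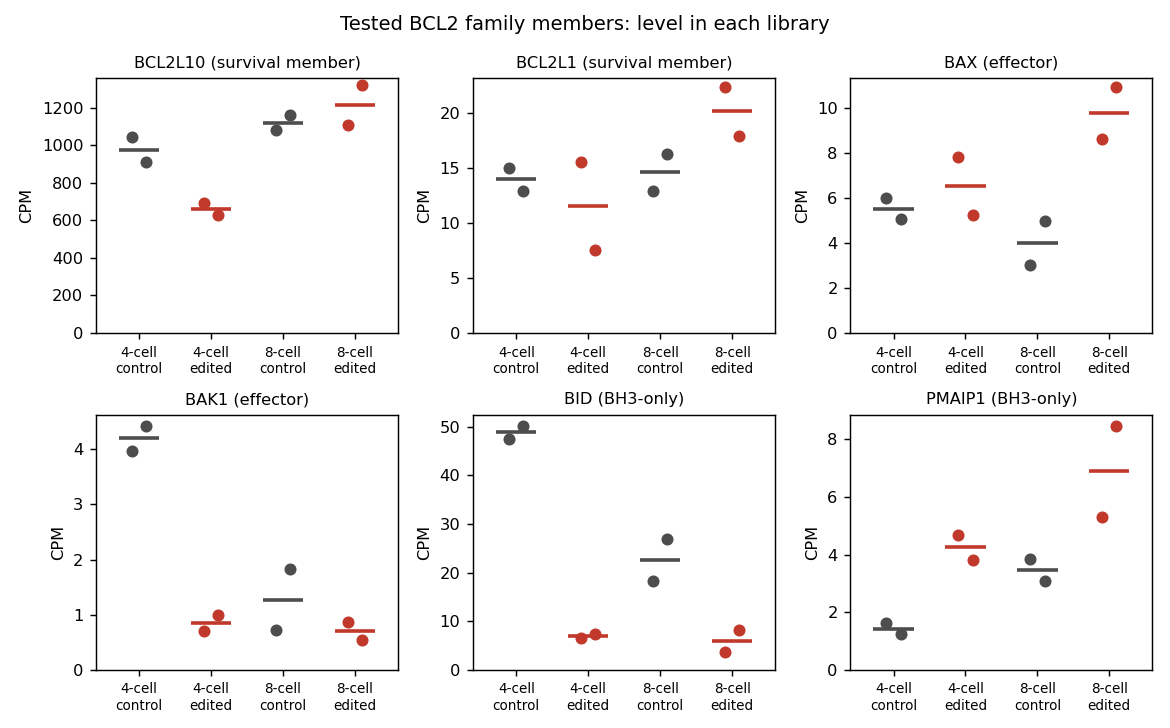
Level of the 6 tested BCL2 family members in each library, in CPM on linear axes that start at 0 and differ between panels. Points are libraries of 5 pooled embryos, bars are group means over 2 libraries, grey is control and red is edited. BID lies between 47.6 and 50.1 CPM in 4-cell controls and at most at 8.24 CPM in the edited libraries of both stages.

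Among the survival members, BCL2L10 was the gene with by far the most reads, between 21543 and 44096 per library. Its level was 1045 and 908 CPM in the 4-cell control libraries and 694 and 630.1 CPM in the 4-cell edited libraries. Both edited libraries thus lay below both controls at this stage. Among 8-cell libraries BCL2L10 stood at 1079 and 1160 CPM in controls and at 1108 and 1321 CPM in edited embryos, and the groups overlapped. The 4-cell difference was a log2 fold change of -0.56 (SE 0.205, 95% interval -0.99 to -0.12, limma adjusted p-value 0.0360), from 977 ± 97.1 CPM in controls to 662 ± 45.4 CPM in edited embryos (SD, n = 2). This call was lost in 10 of 16 alternatives. Its adjusted p-value was 0.107 with TMM scaling, 0.103 with edgeR, 0.0648 with a block for replicate number, 0.0908 with the 4-cell libraries alone and 0.0596 without a filter. Leaving out 1 library gave 0.0691 (4-cell edited 1), 0.138 (4-cell edited 2), 0.149 (4-cell control 1), 0.0615 (8-cell edited 1) and 0.0618 (8-cell edited 2). Because the values are shares of a library, fewer transcripts of a gene and more of all others cannot be told apart, nor can fewer cells of a type and less RNA per cell.

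Between the stages, BCL2L10 rose in edited embryos from 662 ± 45.4 to 1214 ± 150.4 CPM (SD, n = 2). The log2 fold change was 0.87 (SE 0.205, 95% interval 0.44 to 1.30, limma adjusted p-value 0.0262). In controls it was 0.20 (95% interval -0.24 to 0.63, adjusted p-value 0.553), although both 8-cell controls lay above both 4-cell controls. The editing effect on BCL2L10 exceeded its 4-cell value at the later stage by 0.67 (SE 0.290, unadjusted limma p-value 0.0342), which did not pass after adjustment (0.179). The rise in edited embryos was called in no fit that left out 1 of the 4 edited libraries: the adjusted p-values were 0.0631 and 0.236 without 4-cell edited 1 or 2, and 0.116 and 0.227 without 8-cell edited 1 or 2. With edgeR the adjusted p-value was 0.0566 at a log2 fold change of 0.85.

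BCL2L1 encodes BCL-XL, the survival protein that guards many somatic cells. It stood at 15.1 and 12.9 CPM in 4-cell controls and at 15.6 and 7.58 CPM in 4-cell edited embryos. The edited libraries of this stage differed from each other 2.06-fold, more than the groups did. In the later stage BCL2L1 was 13.0 and 16.3 CPM in controls and 22.4 and 17.9 CPM in edited embryos, so that both edited libraries lay above both controls. None of its comparisons passed: the log2 fold change by editing was -0.33 at the 4-cell stage (95% interval -1.08 to 0.43) and 0.44 at the 8-cell stage (95% interval -0.32 to 1.20), with limma adjusted p-values of 0.485 and 0.474. The change from the 4-cell to the 8-cell stage in edited embryos was 0.82 (95% interval 0.06 to 1.58), with an unadjusted p-value of 0.0357 and an adjusted one of 0.197.

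BCL2 itself, the founding member, was close to undetected. Its 23 reads over 8 libraries were 7 and 1 in 4-cell controls, 0 and 2 in 4-cell edited embryos, 0 and 2 in 8-cell controls, and 4 and 7 in 8-cell edited embryos. A count of 0 allows up to 3 reads, which is 0.0858 to 0.0899 CPM at these depths, and counting error alone is covered by that limit. Both 8-cell edited libraries had more reads than both 8-cell controls, but BCL2 did not enter the test and no fold is given.

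The effectors behaved differently from each other. BAX was 6.00 and 5.07 CPM in 4-cell controls and 7.84 and 5.24 CPM in 4-cell edited embryos, so the groups overlapped. Its 8-cell values were 3.03 and 4.97 CPM in controls and 8.64 and 10.9 CPM in edited embryos, with no overlap. The 8-cell log2 fold change of 1.13 (SE 0.378, 95% interval 0.33 to 1.93) had a limma adjusted p-value of 0.0541. BAX passed in 4 alternatives, at adjusted p-values of 0.0340 with TMM scaling, 0.0497 with edgeR, 0.0186 with DESeq2 and 0.0469 with a pseudocount of 5 CPM. The 4-cell log2 fold change was 0.19 (95% interval -0.61 to 0.99, adjusted p-value 0.718). The difference between the stage effects was 0.94 (SE 0.534, adjusted p-value 0.304) and did not pass.

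BAK1 was a weakly expressed gene that reached the filter through the 4-cell controls, where it stood at 3.97 and 4.43 CPM (137 and 151 reads). Differences of BAK1 from those controls were thus favoured by the filter. In 4-cell edited embryos it was 0.694 and 0.994 CPM (24 and 34 reads), and both edited libraries lay well below both controls. The 8-cell values were 0.715 and 1.83 CPM in controls and 0.867 and 0.539 CPM in edited embryos, where the groups overlapped. The 4-cell log2 fold change was -1.50 (SE 0.397, limma adjusted p-value 0.00601), for a mean level 4.97 times lower. The log2(CPM + 1) scale understates this change: it was -2.20 with edgeR on the recovered reads and -0.65 with a pseudocount of 5 CPM, and BAK1 was called in each of the 16 alternatives run (adjusted p-values 0.00292 to 0.0425). Later, among 8-cell embryos, the log2 fold change was -0.38 (95% interval -1.22 to 0.46, adjusted p-value 0.584). Both 8-cell controls lay below both 4-cell controls, by a log2 fold change of -1.24 (SE 0.397, unadjusted p-value 0.00667, adjusted 0.0590), which missed the threshold. It passed with a pseudocount of 5 CPM (0.0305) and without 8-cell control 2 (0.0394), and at 0.0484 with a replicate block crossed in the 8-cell controls, an alternative chosen after seeing the data. The same 4-cell control libraries enter both of these comparisons.

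**Figure D2:**
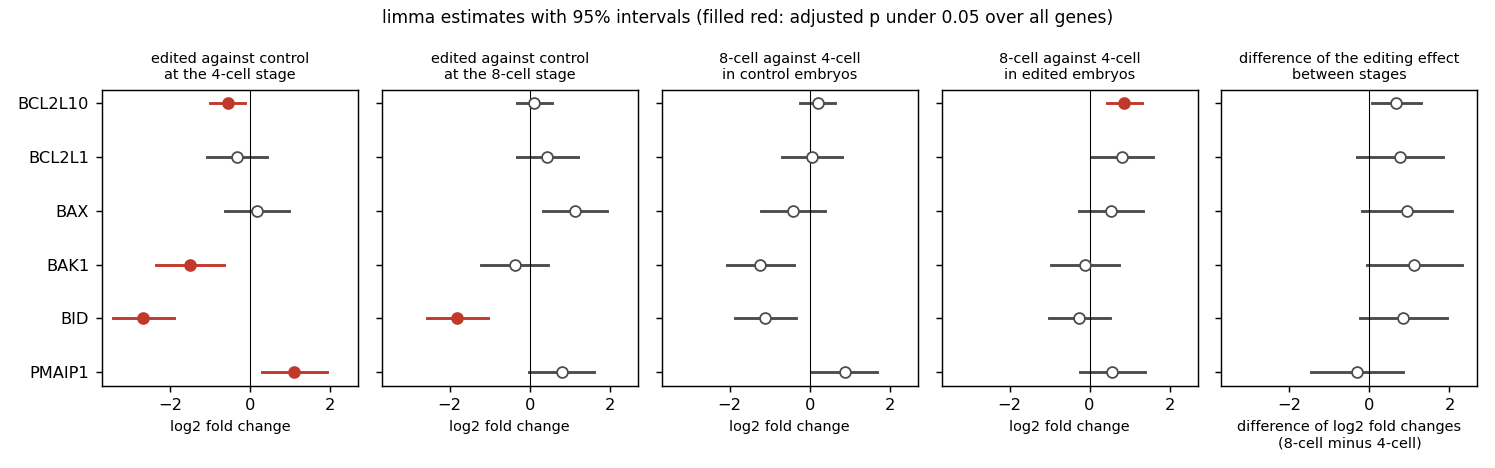
Log2 fold changes of the 6 tested members in the 5 comparisons, with 95% intervals from limma on the log2(CPM + 1) scale. Red filled points passed an adjusted p-value of 0.05 over all 12129 genes and open points did not. BID passed in both edited against control panels, and the interval of BAX at the 8-cell stage, 0.33 to 1.93, lies above 0 without passing.

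BID, the BH3-only protein that caspase-8 cleaves to link death receptors to mitochondria, had the widest range of the tested members by the ratio of its highest to its lowest level. It stood at 47.6 and 50.1 CPM in 4-cell controls (1642 and 1708 reads) and at 6.54 and 7.25 CPM in 4-cell edited embryos (226 and 248 reads). The control libraries differed from each other by 1.05-fold and lay far above the edited ones. Its 8-cell levels were 18.3 and 26.8 CPM in controls and 3.74 and 8.24 CPM in edited embryos, again with no overlap. The log2 fold changes were -2.66 (SE 0.360, limma adjusted p-value 3.09e-05) and -1.81 (SE 0.360, adjusted p-value 0.00198). BID was called at both stages in each of the 16 alternatives, with adjusted p-values up to 0.00178 and 0.0473. The 4-cell and 8-cell effects on BID were not told apart by the test of their difference (0.85, SE 0.509, adjusted p-value 0.331). BID moved with some genes of the cumulus, stroma and epithelium lists and against others. Whether the embryo itself also expressed a listed gene was not tested. At the 4-cell stage both ovarian somatic sums and KRT8 were lower in edited embryos, as was BID. The epithelial markers CDH1 and EPCAM went the other way, with both edited libraries above both controls at each stage. EPCAM stood at 20.2 and 17.6 CPM in 4-cell controls and at 31.0 and 31.1 CPM in 4-cell edited embryos. Among 8-cell libraries the cumulus and granulosa sum overlapped between the groups, but 3 genes of that list were called lower, HSD3B1, CYP11A1 and FST. The other 12 of its 15 tested genes were not called. Of these, HAS2, PTGS2 and STAR lay higher in both 8-cell edited libraries than in both 8-cell controls. HAS2 was also the gene of the list called higher at the 4-cell stage. HSD3B1, a steroid-making enzyme, stood at 40.7 and 176 CPM in 8-cell controls and at 8.31 and 3.09 CPM in 8-cell edited embryos. CYP11A1, another such enzyme, stood at 29.1 and 133 CPM against 12.7 and 4.97 CPM, and FST, which encodes follistatin, at 7.75 and 66.2 CPM against 2.09 and 1.62 CPM. HSD3B1, CYP11A1, FST, LUM and KRT8 were named after their values were seen, as were CDH1, EPCAM, HAS2, PTGS2 and STAR. The part of these markers in the BID result was not tested.

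Within controls, BID lay lower in both 8-cell libraries than in both 4-cell ones. The log2 fold change of -1.11 (SE 0.360, unadjusted p-value 0.00739) missed the threshold at an adjusted p-value of 0.0615. It passed with DESeq2 (0.0223) and with a pseudocount of 5 CPM. In edited embryos the stage change was -0.25 (95% interval -1.02 to 0.51, adjusted p-value 0.733), and the groups overlapped.

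PMAIP1 encodes NOXA, which neutralises MCL1. It stood at 1.62 and 1.23 CPM in 4-cell controls and at 4.69 and 3.80 CPM in 4-cell edited embryos. The 8-cell levels were 3.83 and 3.07 CPM in controls and 5.29 and 8.48 CPM in edited embryos. The edited libraries were the higher ones at both stages. The 4-cell log2 fold change was 1.11 (SE 0.383, limma adjusted p-value 0.0268) for a mean level 2.97 times higher. With a pseudocount of 5 CPM it was 0.52, and with edgeR 1.65. The call was lost without a filter on low values (adjusted p-value 0.0512) and on leaving out 4-cell edited 1 (0.109), 4-cell control 1 (0.0755) or 4-cell control 2 (0.124). The 8-cell log2 fold change of 0.80 (95% interval -0.01 to 1.61) did not pass (adjusted p-value 0.193), and the difference between stages was -0.31 (SE 0.542, adjusted p-value 0.776).

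The remaining BH3-only members were at the edge of detection. BBC3, which encodes PUMA, had 1 to 11 reads per library and 53 in all. Its reads were 9 and 6 in 4-cell controls, 8 and 4 in 4-cell edited embryos, 11 and 8 in 8-cell controls, and 6 and 1 in 8-cell edited embryos. BIK had reads in 3 libraries only, with 5 and 2 in 4-cell edited embryos and 2 in 8-cell control 2, and 0 in the other 5. Both 8-cell edited libraries had fewer BBC3 reads than both 8-cell controls, and only the edited libraries of the 4-cell stage had BIK reads. Neither gene entered the test, and no change is read from counts this small.

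Over the tested members the median log2 fold change by editing was -0.44 at the 4-cell stage and 0.28 at the 8-cell stage, beside -0.02 and 0.00 over all tested genes. From the 4-cell to the 8-cell stage 0 of 6 members passed in controls by limma (3 at an unadjusted p-value under 0.05: BAK1, BID and PMAIP1), 0 by edgeR and 1 by DESeq2, where 9.02% of all genes passed by limma (2.75% higher and 6.27% lower). Libraries of the stages did not overlap for 5 of 6 members in controls, and for 59.2% of all genes. In edited embryos 1 of 6 passed, with 5.18% of all genes (1.45% higher and 3.73% lower), and the stages did not overlap for 4 of 6 members and 52.9% of all genes. For the difference of the editing effect between stages 0 of 6 passed by limma, edgeR or DESeq2 (by limma 1 at an unadjusted p-value under 0.05, BCL2L10), with 3.96% of all genes (1.95% higher and 2% lower).

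Further genes of the pathway were read from lists in the same fits, as counts beside the shares of all genes given above. Of 16 further BCL2 family genes 9 were tested, and 5 of these were called lower and 0 higher in edited embryos at the 4-cell stage (median log2 fold change -1.13). BNIP3L, a mitophagy receptor of the outer mitochondrial membrane, fell from 467 and 444 CPM to 138 and 152 CPM, by -1.64 on the log2 scale (SE 0.208, adjusted p-value 1.70e-05 by limma). BCL2L12 fell from 25.5 and 17.8 CPM to 4.43 and 4.94 CPM (log2 fold change -1.97, SE 0.355, adjusted p-value 0.000357). The other 3, named after their values were seen, were BAD, BNIP2 and BCL2L13, with log2 fold changes of -1.70, -1.13 and -1.16. BAD is a BH3-only protein that binds BCL-XL. In 8-cell embryos BNIP2 alone of the 9 was called, lower by a log2 fold change of -1.14 (adjusted p-value 0.0190), and this call was lost without 8-cell edited 1 (0.200), 8-cell control 1 (0.145) or 8-cell control 2 (0.0503).

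Downstream of the effectors, 9 genes of the apoptosome and of the mitochondrial factors were tested, of which 6 were called lower and 1 higher at the 4-cell stage. VDAC2, the outer membrane channel that holds BAK1, fell from 747 and 636 CPM to 96.0 and 161 CPM at the 4-cell stage and from 335 and 439 CPM to 82.0 and 77.2 CPM at the 8-cell stage. Its log2 fold changes were -2.46 and -2.25 (SE 0.253 each, limma adjusted p-values 2.64e-06 and 1.83e-05). DIABLO (SMAC), which relieves caspases from their inhibitors, fell from 79.2 and 62.0 CPM to 7.69 and 11.9 CPM and, at the 8-cell stage, from 24.8 and 30.2 CPM to 5.17 and 5.00 CPM. Both genes were called at both stages in each of the 16 alternatives. In contrast APAF1, the scaffold of the apoptosome, rose at the 4-cell stage from 31.0 and 41.7 CPM to 72.9 and 71.5 CPM (log2 fold change 0.99, SE 0.257, adjusted p-value 0.00545). In 8-cell embryos 3 of the 9 were called lower, the third being CYCS, the gene of cytochrome c, at -0.95. CYCS was named after its value was seen. The 8-cell count was 2 with edgeR, which did not call CYCS, and 4 with DESeq2.

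**Figure D3:**
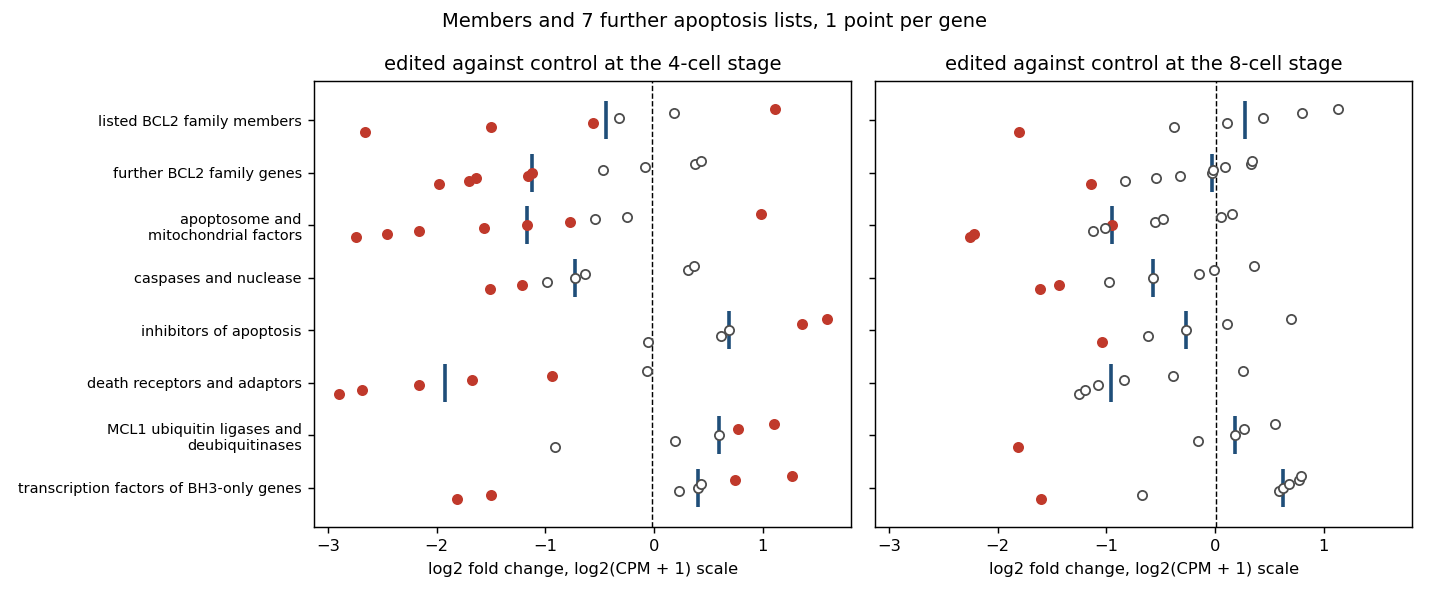
Log2 fold changes by editing at the 4-cell stage (left) and 8-cell stage (right), 1 point per tested gene, for the family members and 7 further lists. Red points passed an adjusted p-value of 0.05, blue bars are list medians and the dashed line is the median of all tested genes; at the 4-cell stage the list medians run from -1.92 for death receptors and adaptors to 0.69 for inhibitors of apoptosis.

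Inhibitors of apoptosis bind and restrain caspases. Of 5 tested, 2 were called higher at the 4-cell stage and 0 lower. XIAP, the direct inhibitor of effector caspases, rose from 41.5 and 55.8 CPM to 138 and 113 CPM, by 1.36 on the log2 scale (SE 0.239, adjusted p-value 0.000290 by limma) and was called in each of the 16 alternatives. BIRC3 rose from 2.61 and 8.33 CPM to 13.6 and 19.9 CPM (log2 fold change 1.59, adjusted p-value 0.00860). That call was lost without 4-cell control 1 (log2 fold change 0.91, adjusted p-value 0.157) or 4-cell edited 2 (1.33, 0.0864). In 8-cell embryos BIRC6 was called lower, from 55.4 and 50.9 CPM to 24.2 and 26.6 CPM (log2 fold change -1.04, adjusted p-value 0.0283). That call was lost with edgeR (0.0599), without a filter (0.0845) and on leaving out any of the 8-cell libraries (0.0986 to 0.159).

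Of 6 tested death receptors and adaptors, which act upstream of BID, 5 were called lower at the 4-cell stage. TRADD went from 24.5 and 15.1 CPM to 1.59 and 1.84 CPM, by -2.90 on the log2 scale (SE 0.396, adjusted p-value 3.33e-05 by limma) and FADD from 40.5 and 22.4 CPM to 4.83 and 3.01 CPM (-2.69, adjusted p-value 0.000274). TNFRSF1A, FAS and CFLAR, named after their values were seen, were lower by log2 fold changes of -2.16, -1.68 and -0.94. TNFRSF1A reached the filter only through the 4-cell controls (4.66 ± 0.785 CPM, against group means of 0.0899 to 0.946 CPM elsewhere; SD, n = 2), so its difference from them was favoured by the filter. The count of 5 was 3 with edgeR, without a filter and without 4-cell edited 1 or 4-cell control 2, and 4 with DESeq2. In 8-cell embryos 0 of the 6 passed by limma (3 at an unadjusted p-value under 0.05), 0 by edgeR and 3 by DESeq2. Of 7 tested caspases and nuclease genes 2 were called lower at each stage, among them DFFA at the 4-cell stage and CASP8 at the 8-cell stage. DFFA, the inhibitor of the nuclease that cuts DNA in apoptosis, had a log2 fold change of -1.22 (adjusted p-value 0.0309). This call was lost with edgeR (0.0584), without a filter (0.0915) and without 4-cell edited 2 (0.212), 4-cell control 1 (0.0859) or 4-cell control 2 (0.115). CASP8, which cleaves BID, had an 8-cell log2 fold change of -1.61 (adjusted p-value 0.0229) and was named after its value was seen. The 4-cell count of 2 fell to 1 without 4-cell edited 1 or 4-cell control 2 and to 0 without 4-cell control 1. The 8-cell count of 2 fell to 1 with edgeR, with the 8-cell libraries alone and without 8-cell edited 2 or 8-cell control 1. It fell to 0 without a filter, with a pseudocount of 5 CPM and without 8-cell edited 1 or 8-cell control 2.

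For the enzymes that set the stability of MCL1 protein, 2 of 5 were called higher at the 4-cell stage. USP9X, a deubiquitinase that stabilises MCL1, stood at 47.4 and 98.8 CPM in controls and at 151 and 146 CPM in edited embryos (log2 fold change 1.11, limma adjusted p-value 0.00642). FBXW7, a ubiquitin ligase subunit, had a log2 fold change of 0.77 (adjusted p-value 0.0424). Leaving out 4-cell control 1 ended both calls (0.102 and 0.522), as did leaving out 4-cell edited 1 (0.0522 and 0.207), and that of FBXW7 also ended with edgeR (0.0658), with DESeq2 (0.0631), without a filter (0.119) and without 4-cell edited 2 (0.0981) or either 8-cell edited library (0.0521 each). In 8-cell embryos HUWE1, a ligase of MCL1, was called lower, from 13.2 and 27.3 CPM to 2.87 and 7.49 CPM (log2 fold change -1.81, adjusted p-value 0.00629). This was lost without a filter (0.0546) and without 8-cell edited 1 (0.115) or 8-cell control 2 (0.117).

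Of 7 tested transcription factors that act on BH3-only genes, 2 were called higher and 2 lower at the 4-cell stage. TP63, whose protein guards the oocyte genome, rose from 6.46 and 11.6 CPM to 24.4 and 20.3 CPM (log2 fold change 1.27, limma adjusted p-value 0.00500), and this was lost without 4-cell control 1 (0.0713). DDIT3 (CHOP), the factor of the endoplasmic reticulum stress response, rose from 228 and 256 CPM to 476 and 344 CPM (log2 fold change 0.74, adjusted p-value 0.0133), and this was lost without 4-cell edited 1 (0.142) or 4-cell control 1 (0.0581). Among the lower genes was MYC, with log2 fold changes of -1.50 at the 4-cell stage and -1.60 at the 8-cell stage. At the 8-cell stage it was the only call of the list by limma, where edgeR called 0 of the 7 and DESeq2 2. MYC stood at 3.55 to 7.48 CPM in the control libraries and at 0.179 to 2.14 CPM in the edited ones. It entered the test through the controls, so its fall was favoured by the filter. MYC was named after its values were seen.

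Between the stages in controls, the called genes of these lists were DIABLO, VDAC2, TRADD and TNFRSF1A, which were lower at the 8-cell stage, and FBXW7 and DDIT3, which were higher. TNFRSF1A was named after its value was seen, and it entered the test through the 4-cell controls. The log2 fold changes of DIABLO, VDAC2 and TRADD were -1.33, -0.85 and -1.90 (limma adjusted p-values 0.0239, 0.0481 and 0.0152), and those of FBXW7 and DDIT3 were 1.02 and 0.79 (0.0432 and 0.0409). Without 4-cell control 1 the adjusted p-values of these 5 genes were 0.217, 0.252, 0.188, 0.392 and 0.219, and without 8-cell control 1 they were 0.228, 0.356, 0.180, 0.321 and 0.289. Leaving out either 8-cell edited library also ended the calls of VDAC2 (0.0658 each), FBXW7 (0.0536 and 0.0537) and DDIT3 (0.0569 and 0.0574). That of FBXW7 ended without either 4-cell edited library (0.0737 and 0.0726), and that of DDIT3 without 8-cell control 2 (0.0599). Processing ended these calls too. Without a filter the adjusted p-values of the 5 genes, in the same order, were 0.0776, 0.125, 0.0751, 0.136 and 0.105, and with only the control libraries fitted 0.0518, 0.0920, 0.0507, 0.122 and 0.0898. With edgeR VDAC2, FBXW7 and DDIT3 were not called (0.110, 0.0941 and 0.0758). The 4-cell control libraries also enter the 4-cell editing comparison. In edited embryos 0 genes of the 7 lists passed between stages by limma or edgeR. DESeq2 called 2 genes each among the apoptosome and mitochondrial factors and the inhibitors of apoptosis, and 1 among the caspases and nuclease. By limma an unadjusted p-value under 0.05 was reached by 3, 3 and 1 genes of those lists, 2 of the MCL1 enzymes, 1 transcription factor, 1 further family gene and 0 death receptors and adaptors.

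**Figure D4:**
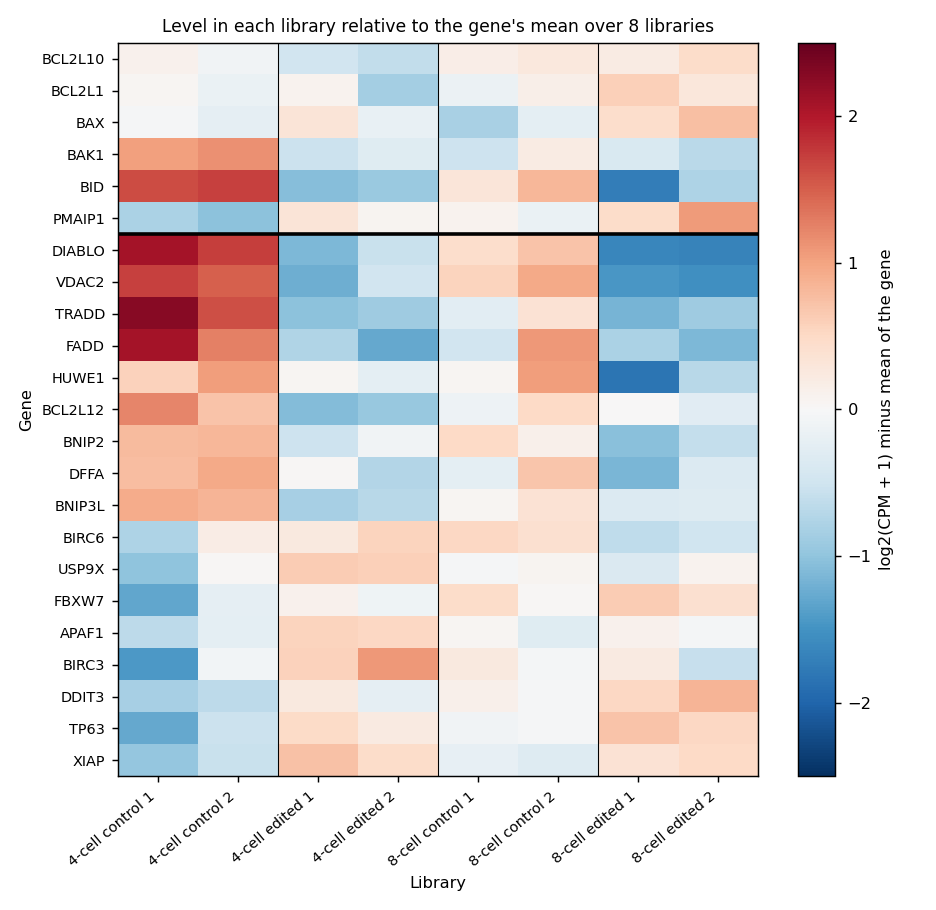
Level of each gene in each library relative to its mean over the 8 libraries, on the log2(CPM + 1) scale, for the 6 tested members (above the line) and the pathway genes named for the editing comparisons (below, ordered by the difference between edited and control). BID shares its pattern of high 4-cell controls, intermediate 8-cell controls and low edited libraries with DIABLO and VDAC2, whereas BCL2L10 is lowest in the 4-cell edited libraries.

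The genes whose levels followed those of a member most closely over the 8 libraries were listed for 1 member of each role, the one with the highest mean CPM. For BCL2L10 these were CRHR2, BUB3 and ENTPD4, with Pearson r of 0.963, 0.962 and 0.957 on the log2(CPM + 1) scale, and 36 genes reached an r over 0.9. For BAX they were PERP, VPS9D1 and PQBP1 (0.969, 0.963 and 0.950), with 24 genes over 0.9. For BID they were TUBB, DCTPP1 and UQCRC1 (0.997, 0.997 and 0.994), and 1556 genes exceeded 0.9. The pattern of BID was thus shared by many genes. These correlations describe libraries that fall into 4 groups and share the group differences, so no p-value is attached.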

How the data were processed

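Reads of 8 libraries were processed by the authors. The submitters' processing notes name Trim Galore 0.6.7, HISAT2 2.2.1 and featureCounts 2.0.1, and the genome build, annotation and counting settings are not given in the sources used here. The deposited table is called raw read counts but holds CPM, as its values show: columns sum to between 992528 and 1007024, and 100% of values above 0 are multiples of a library's own step (tolerance 0.05 reads). Whole reads were recovered from the steps. Of 12 columns, 4 match no sample and were not used. Of the 16606 symbols 16571 matched RefSeq (ARS-UCD2.0), which was used for names and overlaps only.

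The test was limma 3.58.1 (R 4.3.3) fitted to log2(CPM + 1) with a variance trend, for genes whose mean reached 1 CPM, with 1 mean per group, all 8 libraries and 5 contrasts. P-values were adjusted by the Benjamini-Hochberg method over all 12129 genes, and genes were called under 0.05. A low level is thus damped on this scale. Alternatives were pseudocounts of 0.5 and 5 CPM, no filter, TMM scaling, edgeR 4.0.16 and DESeq2 1.42.0 on the recovered reads, a replicate block, only the libraries compared, and each library left out. Fits were tested on simulated data. Members are always named; of each pathway list up to 2 called genes per direction were named, by smallest p-value among those whose mean reached 5 CPM. For the likeness of patterns the 3 genes with the highest r were taken. Some list genes are counted but not reported here by name. The members and lists were chosen with earlier results of these data known. Nothing in the labels says that the pools came from separate cultures, so p-values measure the spread between these libraries, and reads of amplified cDNA that carry no molecular identifiers do not count independent molecules. Of the further marker lists, leukocyte markers summed to at most 11.1 CPM and red cell markers to at most 0.659 CPM.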

Additional observations from a re-analysis of the deposited data

Results flagged for a closer look

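The effect of editing differed between the stages for 2 of the named pathway genes, by limma's test of the difference itself. For BNIP3L the 8-cell effect was more positive than the 4-cell effect by 1.10 on the log2 scale (SE 0.294, adjusted p-value 0.0482), with 455 ± 16.3 against 145 ± 10.2 CPM in control and edited embryos at the 4-cell stage and 285 ± 43.9 against 194 ± 1.85 CPM at the 8-cell stage (SD, n = 2). The call was lost with edgeR (0.0928), with TMM scaling (0.0691), without a filter (0.108), with the replicate block (0.0711) and on leaving out any of 6 libraries (0.0973 to 0.222). For BIRC6 the 8-cell effect was more negative by -1.73 (SE 0.433, adjusted p-value 0.0393), with 32.8 ± 15.2 against 50.9 ± 7.81 CPM at the 4-cell stage and 53.1 ± 3.16 against 25.4 ± 1.67 CPM at the 8-cell stage (SD, n = 2). That call was lost with edgeR (0.0708), without a filter (0.130) and on leaving out any of 6 libraries (0.0906 to 0.148). BIRC6 was higher in both edited libraries than in both controls at the 4-cell stage and lower in both at the 8-cell stage. No tested BCL2 family member of the list showed such a difference.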

How the results depend on the processing

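BID at both stages and BAK1 at the 4-cell stage kept their direction and their call under every alternative run. BAK1 entered the test through the 4-cell controls, however, so its 4-cell difference was favoured by the filter. With 2 libraries a group, other calls rest on few values. The number of members called at the 4-cell stage (4) was 2 without a filter on low values, and 2 to 4 with 1 library left out. At the 8-cell stage (1) it was 2 with a pseudocount of 5 CPM, TMM scaling, edgeR or DESeq2, BAX being the addition, and 1 with any library left out. Between stages in controls (0) it was 2 with a pseudocount of 5 CPM, 1 with DESeq2, and 0 to 1 with 1 library left out. In edited embryos (1) it was 0 without a filter and with edgeR, and 0 to 1 with 1 library left out. For the difference between stages it was 0 throughout. Uncalled values near 0 changed sign: BCL2L1 between stages in controls was -0.0162 with DESeq2 and -0.10 to 0.21 with 1 library left out. With 1 library left out, BAX at the 4-cell stage ranged from -0.0641 to 0.44, BCL2L1 at the 4-cell stage from -0.80 to 0.15, BCL2L10 at the 8-cell stage from -0.0133 to 0.24, and, between stages in edited embryos, BAK1 from -0.26 to 0.0222 and BID from -0.74 to 0.23. Over all genes the counts called between stages in controls (1094), in edited embryos (628) and for the difference between stages (480) ranged over all alternatives from 0 to 2114, 5 to 1299 and 0 to 1396. They were 0, 5 and 0 without a filter, 287, 409 and 22 with edgeR, and 1692, 1299 and 1101 with DESeq2. Those by editing were 3741 to 5615 (reported 5419) and 1021 to 2194 (reported 1895, and 1021 without 8-cell control 2). By editing edgeR called 5252 and 1722. Of the 560 counts of the 7 further lists 419 stayed within 1.5 times the reported one. The cause was not tested. TMM or DESeq2 scaling moved the median of all genes by at most 0.07 on the log2 scale.

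The titles number the libraries of each group 1 and 2 without saying what a number stands for. Same-numbered libraries had deviations that correlated at 0.11 and -0.09 in the 4-cell and 8-cell editing comparisons, and at -0.30 and 0.02 between stages in controls and edited embryos, so the numbers were not taken as pairs. With the replicate block 3, 1, 0, 1 and 0 members were called in the 5 comparisons, and 5224, 1842, 985, 554 and 386 of all genes. With 8-cell control numbers swapped, an alternative chosen after seeing the data, 1 member and 1690 genes were called between stages in controls.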

Other observations

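The ratio of BAX to BCL2L1 levels is given here as a description. It was 39.8 and 39.2 BAX CPM per 100 CPM of BCL2L1 in 4-cell controls and 50.2 and 69.1 in 4-cell edited embryos. At the 8-cell stage it was 23.4 and 30.5 in controls and 38.5 and 61.0 in edited embryos. The edited libraries were the higher ones at each stage. The same ratio for BID ran the other way, with 316 and 387 in 4-cell controls against 41.9 and 95.8 in edited embryos, and 141 and 165 against 16.6 and 46.0 at the 8-cell stage. The values are not corrected for transcript length, so only their differences between libraries can be read.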
